A study of Drosophila melanogaster with 18 samples.

Results

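The cuticle protein genes of Drosophila melanogaster were taken as all genes of the Release 6 annotation whose symbol starts with Cpr and a digit or with Twdl in any case. The rule gave 96 of 18358 annotated genes, 70 named Cpr and 26 named Twdl, 1 of which (TwdlU) is annotated as a pseudogene. RNA polymerase II occupancy at these genes was read from targeted DamID (TaDa), in which the Dam methylase fused to a polymerase II subunit (Dam-PolII) methylates the adenine of nearby GATC sequences and reads are counted at each methylated site. Dam-PolII was expressed in embryos with 1 of 2 GAL4 drivers, bap-GAL4 for the visceral mesoderm (bap below) and twi2xPE-GAL4 for the mesoderm at large (twi below).

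Each driver was combined with 3 genotypes, and each of the resulting 6 groups held 3 libraries, 18 in all. The groups labelled Dam-PolII were described as expressing the fusion alone and served as the control. The groups labelled Alk.DN also expressed UAS-Alk.DN, a MYC-tagged extracellular domain of Alk, a receptor tyrosine kinase, that blocks the receptor as a dominant negative. The groups labelled Jeb also expressed UAS-Jeb, the secreted ligand of Alk. By the study's description all 6 groups carried Dam-PolII, although the labels of the Alk.DN and Jeb libraries name only the added transgene. Embryos came from 4 h collections at 25°C and their labelled stages were 10 to 13. Nothing in the labels states that the libraries of a group came from separate crosses, so p-values measure the spread between these libraries.

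Cpr proteins carry the Rebers-Riddiford consensus, a chitin-binding domain, and Tweedle proteins form a separate family of secreted cuticle proteins in which mutations alter the body shape of larvae and pupae. Both kinds are made by epidermal cells, which derive from the ectoderm, and most are transcribed in bursts when a new cuticle is laid down late in embryogenesis and before each molt. Many sit in tandem arrays of close paralogues. Neither driver is an epidermal one, and the stages profiled precede cuticle secretion, so the genes are of use here as a class with little known transcription in the tissue studied.

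For each gene, counts were summed over the GATC sites in the annotated span and 500 bp on either side (the window) and scaled to a library total of 1000000 (CPM). CPM per site is that value divided by the number of GATC sites in the window, and it is used wherever genes of unequal size are compared. The 96 windows held 2 to 74 sites, with a median of 9 against 10 over all windows, and together covered 1082 of the 400733 sites in the table (0.270%). Library totals ran from 1624349 to 14095376 counts, and a gene with at most 3 counts in every library of a group was treated as not detected there.

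The labels were checked at jeb, the gene that UAS-Jeb expresses, and at Polr2A, the gene of the large polymerase II subunit. For bap Dam-PolII its first exon gave 382, 367 and 470 CPM, for bap Jeb 5.57, 258 and 249 CPM, and for twi Jeb 4.93, 351 and 621 CPM. The other 9 libraries held from 2.40 to 13.2 CPM. The signal expected of a UAS-Jeb transgene was thus present in all 3 libraries labelled bap Dam-PolII and was low in replicate 1 of both Jeb groups, which goes against those labels. Directions drawn from these groups below rest on the labels as given. At Polr2A exons, the bap control held from 2043 to 2088 CPM, the twi control from 260.1 to 268.9 CPM and the Jeb libraries from 157 to 876 CPM. The range was only 31.8 to 52.6 CPM with bap Alk.DN and 36.6 to 44.8 CPM with twi Alk.DN. All 6 Alk.DN libraries thus lay below the other 12 at this gene, which applies to every Alk.DN comparison made here. The part of that difference in the member values was not tested, and the presence of the fusion in the Alk.DN libraries was not shown by this check. The driver tissue was visible in the median of 11 mesoderm marker genes (among them Mef2, how and Hand). It was 15.2, 6.67 and 11.2 CPM per site in bap Dam-PolII, Alk.DN and Jeb, against 0.705, 1.33 and 0.631 over all windows. In the twi groups it was 6.45, 3.77 and 9.05, against 0.924, 1.56 and 0.683. The marker gene twi lay below the all-window median in all 3 bap groups (percentiles 38.4, 34.2 and 44.0).

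Several members whose values carry the results below have a TATA box close to their annotated start, and their promoters are shown for that reason. Others that carry results, among them Cpr47Ee, Cpr47Ea, Cpr76Bc, Cpr76Bd, Cpr49Ac and Cpr73D, have no TATAAA 45 to 16 bases before theirs. Each line gives the 60 bases before the start in the direction of the gene (RefSeq, Release 6), with TATAAA and GATC in capitals.
Cpr78E, 3L:21666981-21667040, minus strand: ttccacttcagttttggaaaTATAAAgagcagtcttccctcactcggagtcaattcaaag
TwdlB, 3R:26623544-26623603, minus strand: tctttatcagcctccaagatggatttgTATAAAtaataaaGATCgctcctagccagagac
TwdlM, 3R:26619058-26619117, plus strand: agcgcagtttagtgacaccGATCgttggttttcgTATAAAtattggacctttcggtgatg
Cpr65Ec, 3L:7093144-7093203, plus strand: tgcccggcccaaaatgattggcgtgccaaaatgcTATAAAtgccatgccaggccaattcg
TATAAA on the gene strand, starting 45 to 16 bases before the start, was found in 54 of the 95 members with a protein-coding promoter sequence (56.8%), against 8.74% of 13968 promoters. GAGAG on either strand, over 250 bases before to 50 after the start, was found in 31.6% of member promoters and 29.7% of all. These are matches of letters and do not show that a factor binds. The GATC in the TwdlB and TwdlM promoters is a site at which DamID could read the promoter directly.

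The cuticle genes had low signal in all 6 groups, below that of the typical gene. Their median was 0.177 ± 0.0088 CPM per site in bap Dam-PolII (SD over libraries, n = 3), against 0.705 over all windows. In bap Alk.DN it was 0.688 ± 0.068 against 1.33, and in bap Jeb 0.198 ± 0.069 against 0.631. The median member thus lay under the median gene, at 0.251, 0.517 and 0.319 times its level in these bap groups. With twi, the median was 0.230 ± 0.037 CPM per site in Dam-PolII against 0.924 over all windows. It was 0.762 ± 0.043 against 1.56 in twi Alk.DN and 0.130 ± 0.016 against 0.683 in twi Jeb. Both Alk.DN groups thus had the higher member medians of their driver, and their all-window medians were higher as well. As bulk profiles, these values cannot tell fewer methylated cells from less signal per cell. The study describes its controls as Dam-PolII alone, although its methods also mention Dam-only embryos. No library is labelled as Dam without the polymerase subunit, so the signal was not corrected for methylation unrelated to the polymerase.

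**Figure D1:**
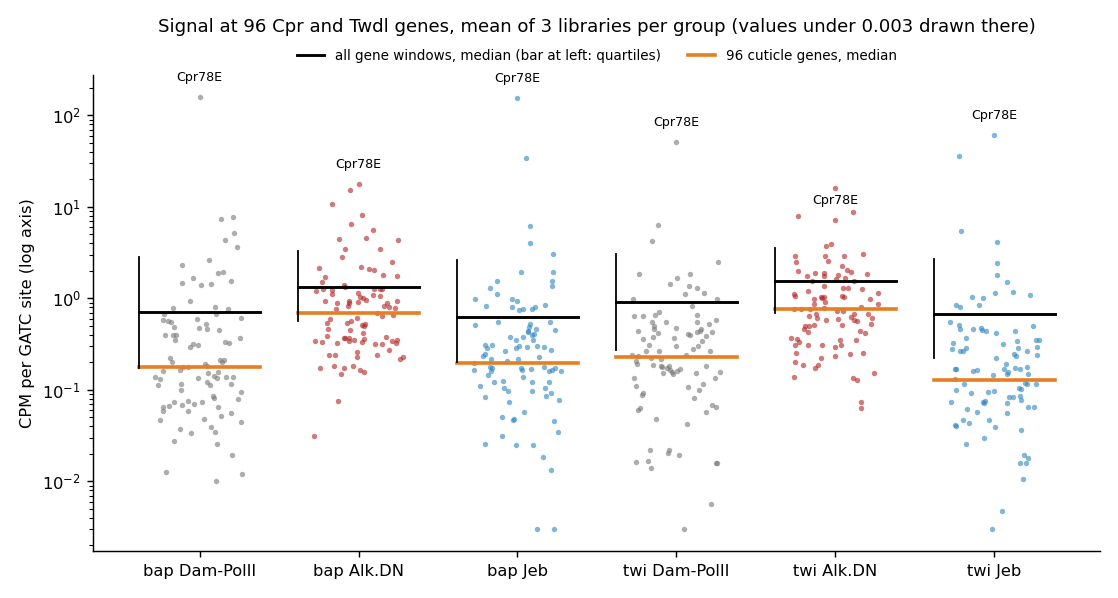
Mean CPM per GATC site of 3 libraries (log axis) for each of the 96 Cpr and Twdl genes (points) in the 6 groups, with the median of the members (orange line) and of all gene windows (black line, with quartiles at its left). The orange line lies below the black one in each group, and Cpr78E is the highest point except in twi Alk.DN.

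Of the 96 members, 77, 74 and 74 lay below the all-window median in bap Dam-PolII, Alk.DN and Jeb, and 82, 72 and 81 in the twi groups. The same 56 members were below it in all 6 groups, which held for 33.9% of all windows. A smaller set of 20 members stayed in the lowest quartile of windows in all 6 groups, against 11.2% of windows. It included Cpr31A, Cpr35B, Cpr92A, Cpr92F, Cpr100A, Cpr11B and Cpr12A, and the Tweedle genes TwdlH, TwdlJ, TwdlO, TwdlR, TwdlS, TwdlT and TwdlZ. Averaged over the 6 groups, the lowest members with at least 3 sites were Cpr11B at 0.0511, TwdlN at 0.0694, TwdlZ at 0.0698, TwdlO at 0.0857 and TwdlR at 0.0922 CPM per site. The division counts every site of a window, also those with 0 counts in all 18 libraries. Such sites were 1 of 7 in Cpr11B, 10 of 18 in TwdlN, 3 of 7 in TwdlZ, 2 of 5 in TwdlO and 2 of 9 in TwdlR. The order of these members thus depends partly on them. All 7 sites of the Cpr11B window lie within another gene, hwt.

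At the other end, 2 members were in the highest quartile of windows in all 6 groups, Cpr78E and Cpr73D. Averaged over groups, the highest members with at least 3 sites were Cpr78E at 75.3 CPM per site, TwdlB at 8.80, Cpr73D at 7.14, Cpr5C at 6.68, Cpr47Ee at 3.75, Cpr51A at 3.16, Cpr66Cb at 2.63, Cpr49Aa at 2.20, Cpr47Ef at 2.14 and TwdlF at 2.05. The Cpr65Ec window, with only 2 sites, averaged 6.93. TwdlB and Cpr5C were high in 1 Jeb group each. The genes above 10 CPM per site were few, at 1, 3 and 2 members in bap Dam-PolII, Alk.DN and Jeb and 1, 1 and 2 in the twi groups, while 7.88% to 9.58% of all windows exceeded that level.

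Genes with the same protein domains but other names were low too. The 29 Rebers-Riddiford or Tweedle genes that the naming rule does not take (Lcp, Ccp84A, Edg, Pcp and others) had medians of 0.192, 0.415 and 0.132 CPM per site in bap Dam-PolII, Alk.DN and Jeb and of 0.137, 0.619 and 0.103 in the twi groups. In contrast, 21 genes of chitin synthesis, cuticle assembly and sclerotisation had medians between 0.561 and 1.27. For 13 epidermal marker genes (grh, kkv, ovo and others) the medians were 0.511 to 1.44 CPM per site, also above the cuticle protein genes in each group. Their median exceeded that of all windows in bap Dam-PolII (1.35 against 0.705) and bap Jeb (1.44 against 0.631). It was near it in bap Alk.DN (1.33 against 1.33). With twi it lay below, at 0.669 against 0.924 in Dam-PolII, 1.06 against 1.56 in Alk.DN and 0.511 against 0.683 in Jeb. The genes grh, kkv, verm and serp are in both lists.

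Cpr78E stood apart from the other members, with signal per site at percentiles 88.6 to 99.8 of all windows in the 6 groups and a large fall in Alk.DN. Cpr78E (FBgn0037114) lies on chromosome 3L from 21666452 to 21666980, on the minus strand, and its window holds 7 sites. It had 1121, 1142 and 1084 CPM in bap Dam-PolII, 138, 132 and 104 CPM in bap Alk.DN, and 571, 1397 and 1305 CPM in bap Jeb. The bap Alk.DN libraries were all far below both other groups, which overlapped each other. The fall in bap Alk.DN was 3.69 ± 0.12 on the log2 scale (log2 fold change -3.69, SE; edgeR quasi-likelihood test, adjusted p = 2.18e-11). In the twi groups it had 327, 350 and 392 CPM in Dam-PolII, 48.1, 45.5 and 57.5 CPM in Alk.DN and 223, 596 and 453 CPM in Jeb. Again the Alk.DN libraries were the lowest, with no overlap (log2 fold change -3.34 ± 0.12, adjusted p = 3.46e-09).

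Among libraries labelled Dam-PolII, the gene was lower with twi than with bap (log2 fold change -1.90 ± 0.09, adjusted p = 2.43e-11). It was likewise lower with twi among Alk.DN libraries (-1.46 ± 0.16, adjusted p = 0.000118). Its counts made up 50.7 ± 1.13% of all counts at member sites in bap Dam-PolII, 6.75 ± 0.68% with bap Alk.DN and 46.8 ± 10.3% with bap Jeb (SD, n = 3). In the twi groups the share was 28.8 ± 1.31%, 2.90 ± 0.37% and 33.2 ± 12.1%. Cpr78E thus carried a large share of the family counts in the Dam-PolII and Jeb groups and a small one in Alk.DN. With bap, the other 95 members together held 0.108 ± 0.0021% of the library in the control and 0.172 ± 0.0080% in Alk.DN. With twi these shares were 0.0878 ± 0.0025% and 0.168 ± 0.0015%, the opposite direction to Cpr78E. The median of all windows also rose in Alk.DN, from 0.705 to 1.33 CPM per site with bap and from 0.924 to 1.56 with twi. The rise is thus not particular to the cuticle genes.

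The fragment between the 2 sites upstream of the start that lie in the window is shown because both its ends had high counts. It is given in the direction of the gene with the GATC sites in capitals.
Cpr78E upstream fragment, 3L:21667262-21667360, minus strand: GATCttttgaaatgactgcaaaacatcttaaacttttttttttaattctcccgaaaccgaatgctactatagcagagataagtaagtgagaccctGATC
The site nearer the gene had 268 ± 8.37 CPM in bap Dam-PolII, 25.2 ± 4.70 in bap Alk.DN, 75.6 ± 5.60 in twi Dam-PolII and 11.4 ± 4.21 in twi Alk.DN. The site at the other end had 219 ± 2.36, 41.9 ± 6.67, 86.5 ± 13.5 and 13.7 ± 2.38 CPM in the same groups.

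The signal at Cpr78E was not confined to it. It belonged to a domain whose highest site lay upstream, at -3477 bp from the start, with 1415 ± 31.4 CPM in bap Dam-PolII, 646 ± 23.0 in bap Alk.DN, 942 ± 34 in twi Dam-PolII and 225 ± 22.7 in twi Alk.DN. The 29 sites upstream averaged 192 CPM per site in bap Dam-PolII, the 7 sites of the Cpr78E window 159 and the 26 sites downstream 20.5. Between the peak and Cpr78E lie the long noncoding RNA genes lncRNA:CR43977 and lncRNA:CR45920, the latter spanning the microRNA gene mir-316. In their spans, lncRNA:CR45920 had 154, 23.0 and 164 CPM per site in bap Dam-PolII, Alk.DN and Jeb and 86.5, 10.9 and 85.0 in the twi groups. lncRNA:CR43977 had 105, 22.6 and 108 CPM per site in the bap groups and 45.3, 7.66 and 60.2 in the twi groups, so all 3 genes were low in Alk.DN. Whether the polymerase at Cpr78E belongs to transcription of that gene or of its neighbours cannot be told apart in these counts.

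**Figure D2:**
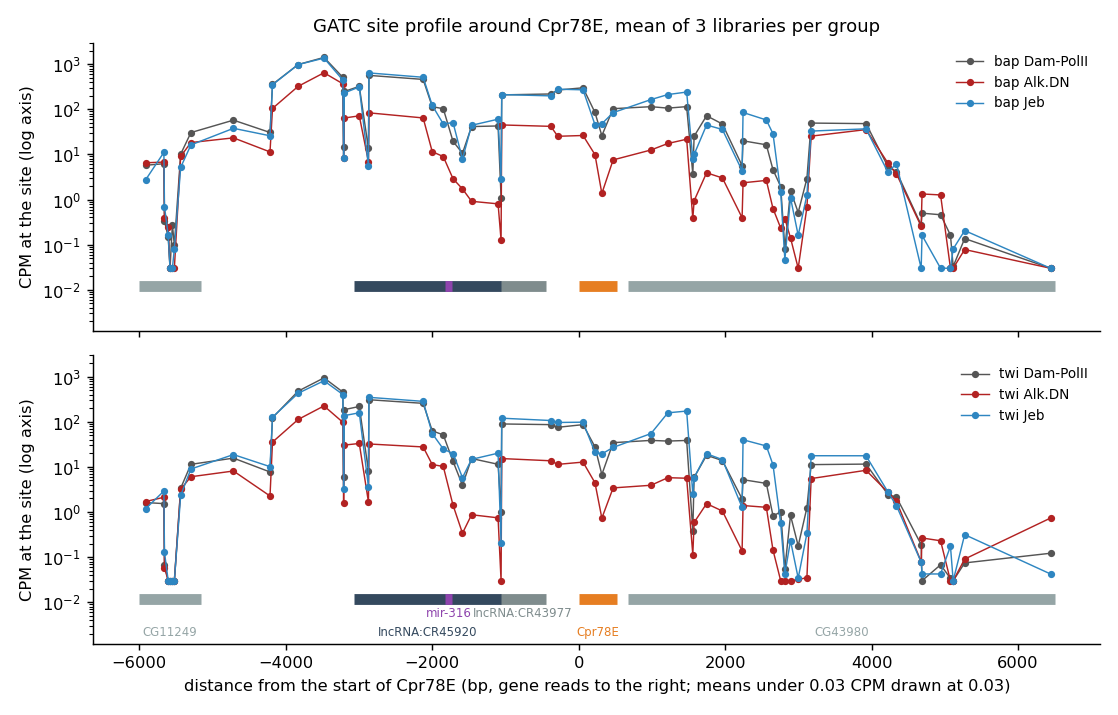
Mean CPM of 3 libraries at each GATC site (log axis) against distance from the start of Cpr78E in bp, for the bap groups (top) and the twi groups (bottom), with gene spans drawn underneath. The Alk.DN profile (red) runs below that of Dam-PolII (grey) from the peak at -3477 bp through Cpr78E, and the Jeb profile (blue) lies near that of Dam-PolII over most of it.

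With the bap driver, more cuticle genes were called higher than lower in Alk.DN. Of the 96 members, 76 had enough counts to be tested against bap Dam-PolII, and 27 were called higher and 8 lower at an adjusted p under 0.01. Over all windows, 16.8% were called higher and 21.2% lower. The Cpr genes gave 24 higher and 5 lower of 58 tested, and the Twdl genes 3 higher and 3 lower of 18. Of the tested members, 15 passed the count filter only through the Alk.DN libraries, so they could enter the test only by being high there. Without any filter, every bap Alk.DN library was above every bap Dam-PolII library for 51 of 96 members and below for 10, against 41.4% and 15% of all windows.

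The split also depends on the scaling between libraries. The normalisation factors (TMM) were near 0.83 in the control and 1.20 in Alk.DN libraries, and scaling by total counts alone moved the median log2 fold change of all windows from 0.09 to 0.62 and the member calls to 36 higher and 3 lower. Low windows of any kind tended to be called higher and high ones lower, so the member calls were also set beside windows of the same quartile of level (mean CPM per site over the 6 groups). In the lowest quartile 7 of 28 tested members were called higher and 0 lower, beside 24.8% and 0.872% of all windows there. The second quartile had 11 of 30 members higher and 2 lower, beside 22.8% and 4.07% of windows, and the third had 7 of 12 higher and 3 lower, beside 15.6% and 17.8%. In these counts the member share called higher was near that of all windows in the lowest quartile and above it in the second and the third. The higher calls include members that passed the filter only through Alk.DN, such as Cpr76Ba and Cpr76Bc. Their number in each quartile was not counted, so no excess of members is read from these shares. In the highest quartile, 2 of 6 members were higher and 3 lower, beside 8.84% and 49.2% of windows.

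Among the members called higher, Cpr47Ee was the clearest. Cpr47Ee (2R, 11265126 to 11266856) had 10.2, 5.68 and 9.66 CPM in the bap control and 99.8, 79.1 and 112 CPM with bap Alk.DN. The groups did not overlap, and all 3 bap Jeb libraries (1.81, 7.23 and 4.93 CPM) were as low as the control (log2 fold change 2.98 ± 0.27, adjusted p = 3.97e-07). Its neighbour Cpr47Ea had 2.77, 0.795 and 2.47 CPM in the bap control and 29.9, 28.3 and 23.3 CPM with bap Alk.DN, also without overlap (3.23 ± 0.46, adjusted p = 3.96e-05). In the Cpr47Ea to Cpr47Eg array of 7 genes, 5 of the 6 tested were called higher in bap Alk.DN, against 16.8% of all windows. Of these 5, Cpr47Eb passed the count filter only through the Alk.DN libraries.

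Members of other arrays rose as well. Cpr76Bc had 1.02, 0.909 and 0.888 CPM in the bap control and 18.9, 14.7 and 14.1 CPM with bap Alk.DN (log2 fold change 3.54 ± 0.52, adjusted p = 5.27e-05). Cpr76Bd had 6.41, 1.70 and 3.35 CPM in the control and 56.7, 31.1 and 40.3 CPM in Alk.DN (2.98 ± 0.43, adjusted p = 4.52e-05). In both genes each Alk.DN library was above each control library. Cpr76Bc passed the count filter only through the Alk.DN libraries, so it could enter the test only by being high there. In all, 3 of the 4 Cpr76B genes were called higher, against 16.8% of all windows. The third, Cpr76Ba, also passed the filter only through Alk.DN. It rests on 0 to 3 counts per control library against 20 to 46 in Alk.DN, so no fold is given. Cpr49Ac had 3.06, 3.41 and 2.37 CPM in the bap control and 25.5, 20.8 and 25.4 CPM with bap Alk.DN (2.49 ± 0.39, adjusted p = 8.77e-05). These groups were also apart. In the Cpr49A array 4 of 7 tested genes were called higher and 1 lower, against 16.8% and 21.2% of all windows. Of the 4, Cpr49Ae and Cpr49Ah passed the filter only through Alk.DN.

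In Cpr65Ec the signal did not lie on the gene. The window had 5.68, 1.36 and 2.86 CPM in the bap control and 34.6, 29.9 and 26.6 CPM with bap Alk.DN (log2 fold change 2.70 ± 0.45, adjusted p = 0.000173). Its high and low libraries separated cleanly by group. However, 97.1% of the window's signal came from 1 site beyond the 3′ end of the gene, and without the flanks the gene could not be tested. The 60 bases around that site are shown to locate it, in the direction of the gene with GATC in capitals.
Cpr65Ec downstream site, 3L:7094301-7094360, plus strand: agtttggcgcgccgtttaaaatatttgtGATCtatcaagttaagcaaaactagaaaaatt
The gene form3 starts beyond this site, at 7094818 on 3L.

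Members called lower in bap Alk.DN were led by Cpr78E and by genes whose control level was among the highest of the family, and lower calls were common among high windows of any kind, as given above. Cpr49Aa had 72.6, 49 and 54.2 CPM in bap Dam-PolII, against 3.21, 8.42 and 7.07 CPM in bap Alk.DN and 47.9, 23.4 and 24.6 CPM in bap Jeb. The Alk.DN libraries were below all other bap libraries (log2 fold change against Dam-PolII -3.76 ± 0.34, adjusted p = 3.25e-07). TwdlM had 16.6, 16.1 and 21.9 CPM in bap Dam-PolII, then 2.65, 1.17 and 3.44 CPM with bap Alk.DN and 0.697, 14.9 and 16.6 CPM with bap Jeb. Apart from replicate 1 of bap Jeb, Alk.DN was again the lowest (-3.41 ± 0.45, adjusted p = 1.92e-05). TwdlF fell from 44.7, 34.4 and 40.8 CPM to 24.9, 28.1 and 17.4 CPM (-1.30 ± 0.26, adjusted p = 0.000758), and the groups did not overlap. Its call was lost in 2 of 14 alternatives, among which the smallest fall was -0.77 on the log2 scale.

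TwdlM is shown at the site within its coding exon that had the most counts in bap Dam-PolII, with GATC in capitals.
TwdlM coding site, 3R:26619433-26619492, plus strand: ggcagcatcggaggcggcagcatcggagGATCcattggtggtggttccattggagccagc

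Calls of smaller size were less secure. Cpr51A had 76.4, 77.7 and 80.5 CPM in the bap control and 66.7, 79.5 and 49 CPM with bap Alk.DN. The groups overlap in CPM, and the call under TMM scaling (log2 fold change -0.79 ± 0.20, adjusted p = 0.00395) was not made when total counts were used (-0.27, adjusted p = 0.266). Cpr73D had 561, 579 and 576 CPM in the bap control and 672, 613 and 537 CPM with bap Alk.DN, which also overlap (-0.44 ± 0.10, adjusted p = 0.00261). Of its 74 sites, 41 lie in the spans of other genes (CG13022, Obp73a and Ogdh, the last a mitochondrial dehydrogenase gene) and held 569 ± 11.6 CPM in bap Dam-PolII. The 33 sites of its own had 2.49 ± 2.28 CPM in bap Dam-PolII and 36.4 ± 16.4 CPM in bap Alk.DN. On those sites alone the direction reversed (log2 fold change 3.35, adjusted p = 0.00015), so the level of Cpr73D is that of its neighbours. The 41 sites in other genes held 571 ± 62.9 CPM in bap Alk.DN. They did not fall in CPM, and the lower call of the window was made under TMM scaling.

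**Figure D3:**
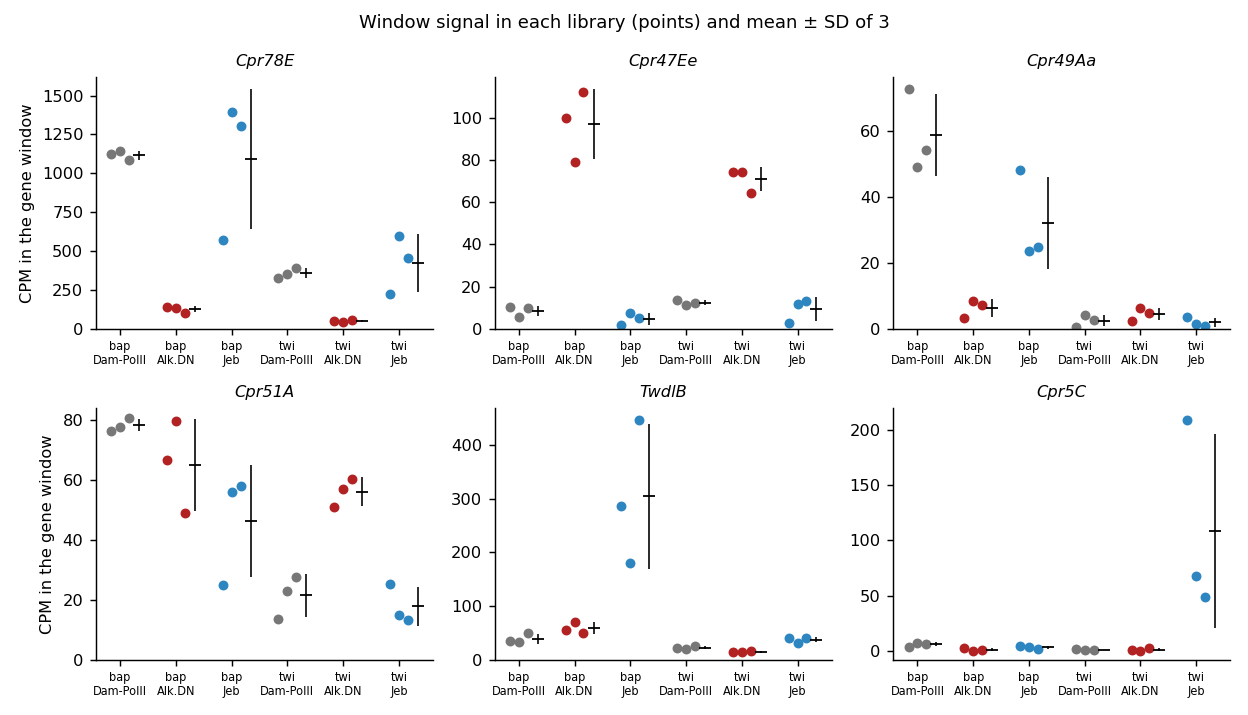
CPM in the gene window in each library (points) and mean ± SD of 3 libraries for Cpr78E, Cpr47Ee, Cpr49Aa, Cpr51A, TwdlB and Cpr5C in the 6 groups. Cpr47Ee is high in both Alk.DN groups and Cpr78E is low in both, Cpr49Aa is high in bap Dam-PolII and bap Jeb, and TwdlB and Cpr5C are each high in 1 Jeb group.

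With the twi driver, Alk.DN gave fewer member calls, most of them higher. Of 87 members tested against twi Dam-PolII, 14 were called higher and 2 lower, against 12.1% and 20.3% of all windows. The Cpr genes gave 13 higher and 1 lower of 68, and the Twdl genes 1 of each of 19. Scaling by total counts changed the member calls to 29 higher and 1 lower and the median of all windows from 0.18 to 0.70. Without replicate 1 or replicate 2 of twi Alk.DN 4 members were called, without its replicate 3 there were 6, and without replicate 3 of twi Dam-PolII there were 26. In this comparison 9 members passed the filter only through Alk.DN. Without a filter, every twi Alk.DN library was above every twi Dam-PolII library for 77 of 96 members and below for 2, against 53.4% and 15% of all windows. By quartile of level, 5 of 39, 3 of 31, 4 of 12 and 2 of 5 tested members were called higher from the lowest to the highest, beside 15.0%, 16.6%, 10.9% and 6.90% of all windows there. Both lower calls were in the highest quartile, where 54.7% of windows were called lower.

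Cpr47Ee again led the higher members, with 13.7, 11.3 and 12.3 CPM in the twi control and 74.2, 74.1 and 64.2 CPM with twi Alk.DN (log2 fold change 2.00 ± 0.17, adjusted p = 3.17e-06). The groups were far apart, and twi Jeb (2.67, 11.7 and 13.1 CPM) did not exceed the control range. Cpr65Au had 1.16, 2.03 and 1.71 CPM in the twi control and 11.9, 14.1 and 11.1 CPM with twi Alk.DN (2.37 ± 0.41, adjusted p = 0.000715). With bap, the same gene had 3.79, 8.41 and 5.23 CPM in the control and 7.94, 5.61 and 11.3 CPM in Alk.DN, which overlap (adjusted p = 0.979). Cpr47Ea had 9.08, 8.63 and 5.85 CPM in the twi control and 29.2, 24.7 and 28 CPM with twi Alk.DN (1.28 ± 0.26, adjusted p = 0.00205), and its call was lost without replicate 1 (adjusted p = 0.0159) or replicate 3 (adjusted p = 0.0156) of twi Alk.DN. Cpr97Eb was called on 1 to 2 counts per control library against 31 to 69 in Alk.DN, so no fold is given.

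Further calls with twi were smaller or from lower counts. Cpr47Ef, which lies beside Cpr47Ee, had 42.8, 40.8 and 37.2 CPM in the twi control and 91.5, 96.3 and 84.8 CPM with twi Alk.DN, with no overlap (log2 fold change 0.66 ± 0.13, adjusted p = 0.0017). The call of Cpr47Ef was lost on the sites inside no other gene (0.25, adjusted p = 0.183), with all 18 libraries in one fit (adjusted p = 0.532) and without replicate 2 of twi Alk.DN (adjusted p = 0.0151), while the gene span alone gave 1.43. Cpr76Bd had 11.2, 3.86 and 9.75 CPM in the control and 35.5, 35.6 and 36.2 CPM in Alk.DN, also apart (1.61 ± 0.34, adjusted p = 0.00268), and its call was lost without any 1 of the twi Alk.DN libraries (adjusted p = 0.0126 to 0.014). TwdlB was called lower, from 22, 19.99 and 25.1 CPM in twi Dam-PolII to 13.7, 14.1 and 16.7 CPM in twi Alk.DN (-1.11 ± 0.22, adjusted p = 0.002). Its groups did not overlap, but its call was lost in 5 of 14 alternatives. It was -0.06 (adjusted p = 0.934) on the gene span alone, which leaves out the promoter GATC shown above, and -0.59 (adjusted p = 0.0439) with total counts. All 18 libraries in one fit gave an adjusted p of 0.0344, and leaving out replicate 1 or replicate 2 of twi Alk.DN gave 0.0135 and 0.0157.

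The calls made with both drivers numbered 11, which is 31.4% of the 35 with bap and 68.8% of the 16 with twi, and each went the same way with both. Over all windows, 3281 were called with both drivers, 57.4% of those called with bap and 60.2% of those with twi, and 96.5% of them went the same way. The 10 called higher were Cpr47Ea, Cpr47Ee, Cpr47Ef, Cpr49Af, Cpr50Ca, Cpr50Cb, Cpr64Aa, Cpr65Ec, Cpr76Bd and TwdlU, and Cpr78E was the one called lower. TwdlU, the annotated pseudogene, had 3.64, 5.57 and 4.93 CPM in the bap control and 24.2, 19.4 and 24.5 CPM with bap Alk.DN. With twi it had 8.09, 8.93 and 9.27 CPM in Dam-PolII and 25.1, 26.9 and 25.6 CPM in Alk.DN, so its Alk.DN libraries were above the control ones with both drivers. Of the other-named Rebers-Riddiford or Tweedle genes, 3 of 16 tested were called higher and 0 lower with bap, and 6 of 26 higher and 0 lower with twi, against the 16.8% and 12.1% of all windows called higher. The chitin and sclerotisation genes gave 3 higher and 5 lower of 20 with bap and 3 of each of 20 with twi. In the same comparisons the mesoderm markers gave 1 higher and 7 lower of 11 with bap and 10 lower of 11 with twi. The epidermal markers gave 7 lower of 13 with bap, and 1 higher and 2 lower of 13 with twi. Over all windows 21.2% were called lower with bap and 20.3% with twi, and in the highest quartile of level 49.2% and 54.7%. Of the 11 mesoderm markers, 8 were in the highest quartile of windows in bap Dam-PolII and 9 in twi Dam-PolII. The part of a changed tissue makeup in the member calls was not tested.

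**Figure D4:**
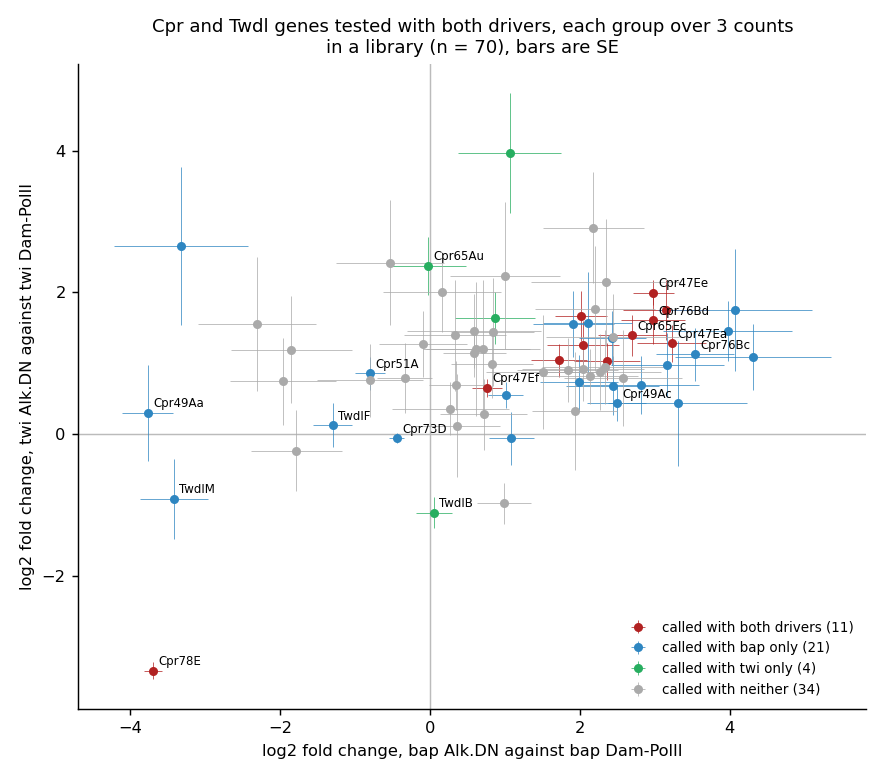
Log2 fold change of Alk.DN against Dam-PolII with bap (x axis) and twi (y axis), ± SE, for the 70 members tested with both drivers and with over 3 counts in a library of each group. Of these, 11 were called with both drivers, 21 with bap only, 4 with twi only and 34 with neither, and Cpr78E lies alone at the lower left.

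A difference in the Alk.DN effect between drivers was tested as an interaction, and 7 of 93 members were called. In 5 of them the effect was higher with twi, and in 2 it was lower, against 5.88% and 4.99% of all windows, so the members were called no more often than windows at large. The largest apart from TwdlD was Cpr49Aa, with 0.660, 4.26 and 2.56 CPM in the twi control and 2.40, 6.20 and 4.90 CPM with twi Alk.DN, which overlap (log2 fold change 0.30, adjusted p = 0.735). Its fall was thus seen with bap alone, but the low twi control left little room for a fall to be seen there. The difference between drivers was 4.12 ± 0.63 on the log2 scale (adjusted p = 7.74e-05). Cpr51A had 13.7, 23.0 and 27.6 CPM in the twi control and 50.9, 57.0 and 60.2 CPM with twi Alk.DN, where every Alk.DN library was higher (0.86 ± 0.23, adjusted p = 0.0109), and differed between drivers by 1.76 ± 0.31 (adjusted p = 0.000326). TwdlM had 3.80, 2.54 and 2.93 CPM in the twi control and 2.88, 1.79 and 2.34 CPM with twi Alk.DN, and differed by 2.61 ± 0.65 (adjusted p = 0.00697), a call lost in 10 of 15 alternatives.

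The effect was lower with twi in Cpr49Ac and TwdlE. Cpr49Ac had 21.0, 19.7 and 11.9 CPM in the twi control and 36.8, 35.9 and 28.9 CPM with twi Alk.DN, higher in each Alk.DN library but from a higher control level than with bap (interaction -1.96 ± 0.43, adjusted p = 0.00236). TwdlE had 6.41, 6.93 and 5.62 CPM in bap Dam-PolII, 18.5, 17.5 and 18.2 with bap Alk.DN, 15.0, 33.9 and 30.4 in twi Dam-PolII and 19.5, 17.5 and 20.9 in twi Alk.DN. The bap groups were apart and the twi groups overlapped (-1.86 ± 0.44, adjusted p = 0.00453), and 8 of its 16 sites lie within lectin-28C.

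Between drivers, among libraries labelled Dam-PolII, 13 of 74 tested members were called lower with twi, a share near the 17% of all windows. Another 2 were called higher (Cpr49Ac and TwdlE), against 12.8% of all windows. Of the tested members, 8 passed the filter only through bap Dam-PolII and 7 only through twi Dam-PolII, so each of these could enter the test only by being high with that driver. These comparisons use the same bap Dam-PolII libraries as the bap Alk.DN comparison, so a gene high in those libraries appears lower in both. Those libraries also held the jeb signal that went against their label, and its part in these calls was not tested. Cpr49Aa was lower by 4.72 on the log2 scale with twi (log2 fold change -4.72 ± 0.39, adjusted p = 2.96e-08), Cpr51A by 2.12 (-2.12 ± 0.23, adjusted p = 9.67e-07) and TwdlM by 2.83 (-2.83 ± 0.37, adjusted p = 7.55e-06). In all 3 genes every twi library was below every bap library. The 2 higher genes were Cpr49Ac (2.31 ± 0.40, adjusted p = 0.000154) and TwdlE (1.81 ± 0.34, adjusted p = 0.000396). On the sites of TwdlE outside lectin-28C the call was lost (0.73, adjusted p = 0.415). Scaling by total counts gave 3 higher and 9 lower.

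The other members lower with twi were Cpr73D, Cpr5C, TwdlB, TwdlF, TwdlP, TwdlD, TwdlN, TwdlL and Cpr65Ax1. For TwdlN, 15 to 56 counts per bap Dam-PolII library stood against 0 to 1 in twi Dam-PolII, and for Cpr65Ax1, 9 to 22 against 0 to 2, so no fold is given. Cpr65Ax1 and Cpr65Ax2 are paired copies, and reads of such copies may be divided between them by the alignment. Cpr73D again reversed on its own sites (log2 fold change 2.04, adjusted p = 0.0097, against -0.53 for the whole window). Between drivers in the Alk.DN libraries, 3 of 87 members were called, all lower with twi, against 2.1% of windows higher and 5.89% lower. They were Cpr78E, TwdlB (-2.12 ± 0.21, adjusted p = 6.35e-05) and Cpr65Av. Cpr65Av had 29.1, 32.0 and 48.2 CPM in bap Alk.DN and 9.11, 10.2 and 17.9 CPM in twi Alk.DN, with no overlap (-1.70 ± 0.32, adjusted p = 0.00366), and its call was lost without replicate 1 (adjusted p = 0.026) or replicate 2 (adjusted p = 0.0269) of twi Alk.DN.

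The members fell into 13 tandem arrays of at least 3 genes and single genes elsewhere, and genes within an array did not share one pattern. The largest array, TwdlM to TwdlD, held 12 Tweedle genes on 3R from 26619118 to 26641054. In twi against bap Dam-PolII, 6 of its 7 tested genes were called lower and 0 higher, against 17% and 12.8% of all windows. In 4 of the 6 (TwdlN, TwdlL, TwdlP and TwdlD) the twi Dam-PolII libraries had at most 8 counts each. TwdlN, TwdlL and TwdlD passed the count filter only through bap Dam-PolII, so they could enter the test only by being high there. The count for the array is therefore not like the share of all windows. In bap Alk.DN against Dam-PolII, 1 of 8 tested was higher (TwdlK) and 2 were lower (TwdlM and TwdlD), against 16.8% and 21.2% of all windows. Here TwdlK passed the filter only through Alk.DN and TwdlD only through Dam-PolII. TwdlD, a Tweedle gene at the end of the array, had 3.50, 5.45 and 4.93 CPM in bap Dam-PolII, 1.32, 0 and 0.574 with bap Alk.DN, 0, 0 and 0.975 in twi Dam-PolII and 1.92, 3.68 and 3.62 in twi Alk.DN. With bap the Alk.DN libraries were the lower ones and with twi the higher ones. These are 0 to 7 counts per library in bap Alk.DN and 0 to 8 in twi Dam-PolII, so no size is given for the interaction, whose call (adjusted p = 0.00821) was lost in 12 of 15 alternatives.

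**Figure D5:**
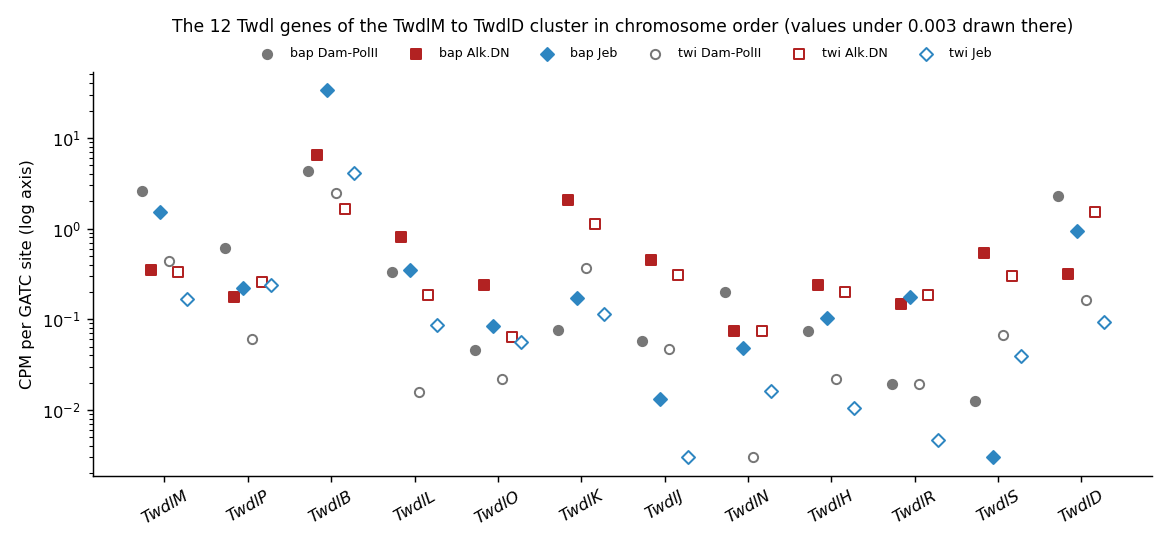
Mean CPM per GATC site (log axis) of the 12 genes of the TwdlM to TwdlD array in chromosome order, for the bap groups (filled symbols) and the twi groups (open symbols). TwdlB is the highest gene of the array in bap Jeb, while TwdlM and TwdlD show their bap Dam-PolII value above that of bap Alk.DN and most other genes the reverse.

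The Jeb groups are given as levels, since the study used them for qualitative reading and replicate 1 of each went against its label. In 2 members each Jeb library exceeded every Dam-PolII and Alk.DN library of its driver and the Jeb mean was at least 4 times the larger of their means. TwdlB had 286, 179 and 447 CPM in bap Jeb, against 33.8, 32.5 and 49.7 CPM in the bap control and 54.2, 70.9 and 49.3 CPM with bap Alk.DN. Cpr5C, an X-linked cuticle gene (5804677 to 5805344), had 209, 67.9 and 48.7 CPM in twi Jeb and at most 7.39 CPM in any library of the other 5 groups. Most of the Cpr5C signal came from a site in its coding exon, with 206, 56.9 and 40.3 CPM in twi Jeb, and the stretch from it to the next site is shown with both GATC sites in capitals.
Cpr5C coding fragment, X:5804826-5804971, plus strand: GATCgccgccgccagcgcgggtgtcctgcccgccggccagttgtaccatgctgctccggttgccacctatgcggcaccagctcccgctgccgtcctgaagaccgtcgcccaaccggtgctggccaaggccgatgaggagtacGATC
For TwdlB the signal came from the promoter GATC shown above, with 282, 169 and 441 CPM in bap Jeb, 25.9, 27 and 35.3 in bap Dam-PolII and 36.1, 27.5 and 30.1 in twi Jeb. It was high with bap and not with twi. Windows that met the same criterion made up 0.364% of all windows with bap and 0.0552% with twi.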

How the data were processed

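Targeted DamID reads were aligned by the authors with Bowtie2 to FlyBase Release 6.21, and the deposited values are raw read counts taken at GATC fragment edges, with 1 value per site and library, with no filter stated. CASAVA 1.4 and limma are named in the submitters' processing notes without a role. The deposited peak tables hold only the authors' own comparisons (sites up or down, p and FDR) and were not used here.

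Libraries were grouped by their labels; replicate 3 of bap Alk.DN has a title without a group, and its remaining label fields give the group. Members, gene lists and comparisons were chosen with earlier results of these data known. Site counts were summed per gene window (span and 500 bp on either side), so overlapping windows share sites and amplified reads are not independent molecules.

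Windows passing filterByExpr (min.count 10) in the libraries compared were tested with edgeR 4.0.16 in R 4.3.3 (TMM on table totals, two-sided quasi-likelihood test, Benjamini-Hochberg over all windows, adjusted p under 0.01). The fits compared Alk.DN with Dam-PolII per driver and twi with bap per genotype. The interaction over 12 libraries was added after the data were seen. The test was checked on simulated data. Named genes were all called members of a comparison up to 12, otherwise in each direction the 6 of smallest adjusted p, then the 10 highest and 5 lowest windows of 3 or more sites and the highest gene of each tandem array (members at most 20000 bp apart). Other members named were chosen after their values were seen. Alternatives were DESeq2 1.42.0 size factors and Wald test, total counts, no count filter, gene spans without flanks, sites inside no other gene, all 18 libraries in one fit, a replicate block and leaving out each library. Promoters and sequences came from RefSeq. Tables were made in pandas 2.3.3 and numpy 2.4.6 and plots in matplotlib 3.10.9 (Python 3.11.15). Same-numbered replicates did not deviate together (r from -0.021 to 0.026 between deviations from group means across windows), so the numbers were not treated as pairs.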

Additional observations from a re-analysis of the deposited data

Results flagged for a closer look

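The Alk.DN effect differed between drivers in 7 members by the edgeR interaction test, given as the effect with twi minus that with bap on the log2 scale. Of 93 members tested, 5 were higher with twi and 2 lower, against 5.88% and 4.99% of all windows, so the members were called no more often than windows at large. The difference was 4.12 for Cpr49Aa (adjusted p = 7.74e-05), 1.76 for Cpr51A (adjusted p = 0.000326) and 2.61 for TwdlM (adjusted p = 0.00697). For TwdlD the fit gave 6.07 (adjusted p = 0.00821), a value that is no measure of size, since 0 counts stood in several libraries and it moved to 10.8 without replicate 3 of twi Dam-PolII. Cpr73D gave 0.49 (adjusted p = 0.00863), mostly from sites in other genes. The difference was -1.96 for Cpr49Ac (adjusted p = 0.00236) and -1.86 for TwdlE (adjusted p = 0.00453). Cpr49Aa and Cpr51A were called whichever library was left out. For Cpr49Ac the call was lost without replicate 3 of twi Alk.DN (adjusted p = 0.0129), and for the other members without any of several libraries. In 4 of the 7, Cpr49Aa, Cpr51A, TwdlM and TwdlD, bap Dam-PolII was the highest of the 4 groups, and these are the libraries in which jeb signal went against the label. The part of that in the difference was not tested.

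In the Jeb libraries, which enter no test, TwdlB averaged 304 ± 135 CPM in bap Jeb (SD, n = 3) and Cpr5C 109 ± 87.8 CPM in twi Jeb. Each was above every Dam-PolII and Alk.DN library of its driver, and for Cpr5C above every library of the other 5 groups. Replicate 1, whose jeb signal was low, was among the high libraries for both genes, with 286 CPM for TwdlB and 209 CPM for Cpr5C.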

How the results depend on the processing

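The 35 members called in bap Alk.DN became 19 on gene spans without flanks, 14 with all 18 libraries in one fit and 23 to 26 when 1 library was left out, 23 without replicate 3 of bap Dam-PolII or replicate 2 of bap Alk.DN. The 16 called in twi Alk.DN became 30 with total counts, 26 with the DESeq2 Wald test, 3 with all 18 libraries in one fit and 4 to 26 when 1 library was left out. They were 4 without replicate 1 or replicate 2 of twi Alk.DN, 6 without its replicate 3 and 26 without replicate 3 of twi Dam-PolII. The 15 called between drivers in Dam-PolII became 4 with all 18 libraries and 10 to 13 when 1 was left out, without replicate 1 or 2 of bap Dam-PolII or replicate 2 of twi Dam-PolII giving 10. The 3 called between drivers in Alk.DN became 8 with DESeq2, 1 with all 18 libraries and 2 to 5 when 1 was left out, 5 being the count without replicate 3 of bap Alk.DN. The 7 interaction calls became 2 to 7, with 2 without replicate 3 and 3 without replicate 1 of twi Alk.DN, and 4 without replicate 2 of bap Dam-PolII, replicate 2 of bap Alk.DN or replicate 3 of twi Dam-PolII. The median CPM per site on gene spans alone, over the 95 members with a site there, was 0.119 in bap Dam-PolII, 0.471 in bap Alk.DN, 0.147 in twi Dam-PolII, 0.570 in twi Alk.DN and 0.0860 in twi Jeb. Cpr73D reversed in bap Alk.DN with total counts (0.087) and on its own sites (3.35), and between drivers on its own sites (2.04). The cause of the other changes was not tested. With the replicate number as a block, calls numbered 27, 13, 15, 3 and 5 in the order above, and the numbers do not pair the samples. For single named genes, 449 of 537 alternatives kept the call, 85 lost it and 3 reversed it, and 15 of 38 results, among them Cpr78E and Cpr47Ee with both drivers, were called under every alternative. Genes at a few counts per library are limited by depth.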

Other observations

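Some GATC sites of the cuticle genes had no counts in any library. Of the 1082 member sites, 150 (13.9%) had 0 counts in all 18 libraries, against 9.86% of all sites. Among sites whose next site lay within 50 bp on both sides, 63 of 89 member sites (70.8%) were at 0, against 49.5% of such sites overall. Among the remaining sites the shares were 8.76% and 7.89%. Cpr72Ec had 23 of its 34 sites at 0 in every library and TwdlN 10 of 18. The coding exon of TwdlN, which encodes a Tweedle protein, is shown because its repeats carry 10 GATC sites (capitals), 9 of which had 0 counts in all libraries.
TwdlN coding stretch, 3R:26632073-26632298, plus strand: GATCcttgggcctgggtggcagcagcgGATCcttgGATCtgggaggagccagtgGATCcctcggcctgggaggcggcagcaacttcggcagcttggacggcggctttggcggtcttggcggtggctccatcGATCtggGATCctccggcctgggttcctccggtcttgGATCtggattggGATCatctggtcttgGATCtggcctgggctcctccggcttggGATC

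Of the 96 members, 12 lie wholly inside the span of another gene, such as Cpr64Aa to Cpr64Ad within CG43367 and TwdlX, TwdlY, TwdlZ and Twdlalpha within goe, and 32 have a site in their window that belongs to another gene. In the promoters, GATC itself occurred in 66.3% of the member sequences and 45.2% of all.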
